A study of Mus musculus with 3 samples.

Results

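Among 838 regulatory T cells (Tregs) kept from mouse dermis, 118 cells had a high summed level of Lrrc32, Bambi, Stat5a, Ccr8 and Ninj1, and the other 720 served for comparison. A cell was kept with at least 500 UMIs (counted RNA molecules), at least 300 genes, at most 10% mitochondrial UMIs and at least 2 UMIs over Cd3d, Cd3e, Cd3g and Cd4. The score was the sum of the UMIs of the 5 genes divided by all UMIs of the cell, and a score-high cell lay at or above the 86th percentile, which was 470.76 CPM (UMIs scaled to a total of 1000000). Both groups came from 1 library of GFP+ CD4+ CD3+ CD45+ cells sorted from the dermis of adult back skin of the Foxp3-EGFP reporter strain C.Cg-Foxp3tm2Tch/J. The layers of the skin were parted with thermolysin and the dermis was digested with collagenase, per the labels' protocols. Libraries of epidermal and lymph node Tregs of the same strain, also 1 each, brought the series to 10414 kept cells. No genotype or treatment differed between the groups, and no source used here gives the number of animals.

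Tregs restrain immune responses under the control of the transcription factor Foxp3, and many live in skin. Lrrc32 encodes GARP, which holds latent TGF-beta on the surface of activated Tregs, and Bambi encodes a decoy receptor that dampens TGF-beta signals. Stat5a carries the signal of interleukin-2, Ccr8 is a chemokine receptor of skin T cells and activated Tregs, and Ninj1 encodes a membrane protein known for cell adhesion and for the rupture of dying cells. On mm10, with GENCODE vM21 genes, Lrrc32 lies at chr7:98489283-98502181, Bambi at chr18:3507923-3516404, Stat5a at chr11:100859351-100885169, Ccr8 at chr9:120092114-120094906 and Ninj1 at chr13:49187485-49196244.

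The 3 libraries differed in depth, with a median of 4813 UMIs per kept cell in dermis, 7052 in epidermis and 3034 in lymph node. The dermal and epidermal libraries shared 43 cell barcodes, of which 27 were kept in dermis. In 30 of them the dermal copy held only 7.09% to 8.60% of the UMIs of the epidermal copy. Of these, 21 passed the filters in dermis and 0 were score-high. Score-high cells with any shared barcode numbered 3, and counts without the shared barcodes stand beside the main ones. Dermis and lymph node shared 1 barcode, which was not kept. Since 1 library was made per tissue, cells are not replicates. No test was run, and each 95% interval covers counting error only.

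The score-high cells held 686944 UMIs with a median of 5149 UMIs and 1819.5 genes per cell, and the other kept cells held 3846034 UMIs with medians of 4776.5 UMIs and 1685 genes. Mitochondrial genes took a median of 4.26% of UMIs in score-high cells and 4.58% in the others. Xist without Y-linked UMIs was found in 106 score-high and 597 other cells, and Y-linked UMIs without Xist in 8 and 46, so each group held cells of both patterns. Foxp3 was detected in 58.5% of score-high cells, in 46.9% of the other kept cells and in 10.8% of the 37 dermal barcodes with under 2 T cell UMIs, whose median depth was 1282 UMIs. Summed over cells, Foxp3 stood at 157 CPM in score-high cells and 145 CPM in the others, a ratio of 1.08 (0.874 to 1.33). The interval took in 1, so the defining transcript of Tregs did not part the groups beyond counting error.

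The values that chose the cells are given as a description. Lrrc32 stood at 134 CPM in score-high cells and 19.5 CPM in the others. Bambi stood at 109 CPM in score-high cells and 7.54 CPM in the others. Stat5a stood at 159 CPM in score-high cells and 21.8 CPM in the others, Ccr8 at 166 and 28.9 CPM, and Ninj1 at 191 and 39.8 CPM. Scores of the 118 cells ran between 472.03 and 2565 CPM, with a median of 683.8, and the highest score outside was 464.97. At the threshold the cells were alike. The 3 cells just inside had 2 UMIs of the 5 genes each, and the 3 just outside had 3, 3 and 2.

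The 5 genes seldom met in 1 cell. Of the 118 score-high cells, 27 had UMIs of only 1 of them, 46 of 2, 32 of 3, 13 of 4 and 0 of all 5. Lrrc32 was detected in 49 score-high cells, Bambi in 32, Stat5a in 60, Ccr8 in 56 and Ninj1 in 70. Only 1 score-high cell had UMIs of Lrrc32, Bambi and Ccr8 together, against 0 of the other kept cells. A high score therefore came from a few UMIs, with a median of 4, of varying genes, and the cells are called by their score rather than as a type marked by all 5 genes.

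**Figure D1:**
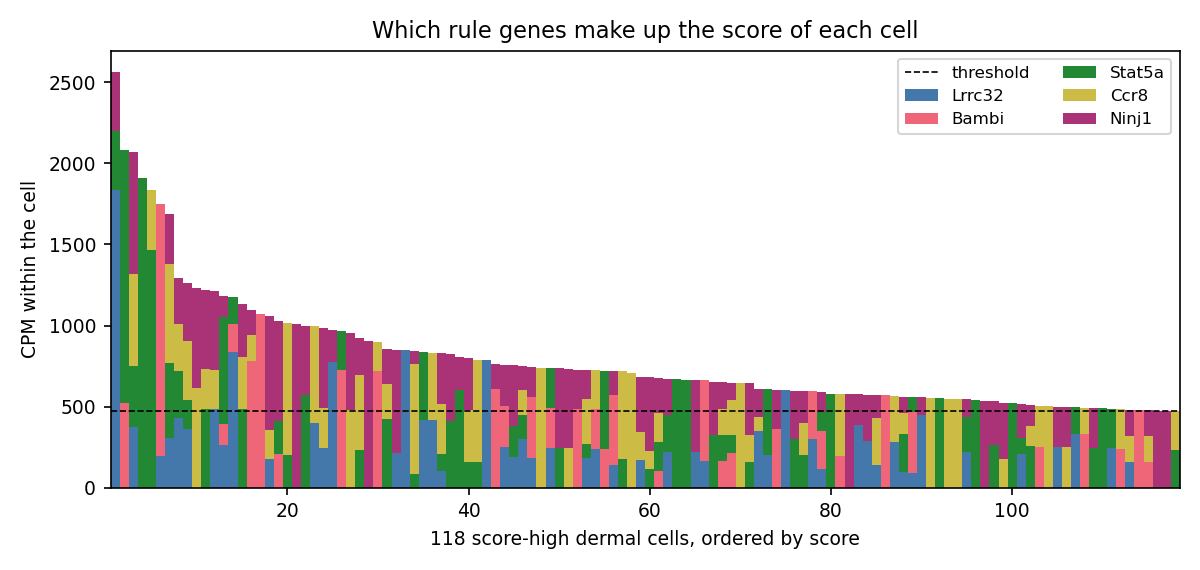
CPM within the cell for the 5 rule genes (colours, stacked) in each of the 118 score-high dermal cells, ordered by score. The dashed line is the threshold of 470.76 CPM, and neighbouring bars are made of different genes, with 27 cells reaching it on 1 gene alone.

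To see whether the 5 genes went together apart from the choice of cells, each gene was left out and 118 cells were chosen by the other 4. Lrrc32 then stood at 72.8 CPM in the chosen cells and 30.4 CPM in the rest, a ratio of 2.39 (1.68 to 3.36). Stat5a stood at 90.6 CPM in the chosen cells and 34.2 CPM in the rest, a ratio of 2.65 (1.92 to 3.61). Ccr8 stood at 86.7 CPM and 43.0 CPM, a ratio of 2.02 (1.48 to 2.73), and Ninj1 at 114 CPM and 53.5 CPM, a ratio of 2.13 (1.62 to 2.78). Bambi stood at 20.5 CPM in the chosen cells and 23.4 CPM in the rest, a ratio of 0.878 (0.462 to 1.55). Thus 4 of the genes were about 2-fold higher in cells chosen without them and Bambi was not. With cells of at least 2000 UMIs thinned to 2000, the log2 ratio was 0.79 for Lrrc32, 0.66 for Ninj1 and 0.56 for Stat5a. It was -0.25 for Ccr8 and -0.56 for Bambi, so the ratios were smaller there and that of Ccr8 turned. Thinning also changed the choice of cells, since by all 5 genes 223 thinned cells were chosen and 572 were not. Which of the 2 changes lowered the ratios was not tested.

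**Figure D2:**
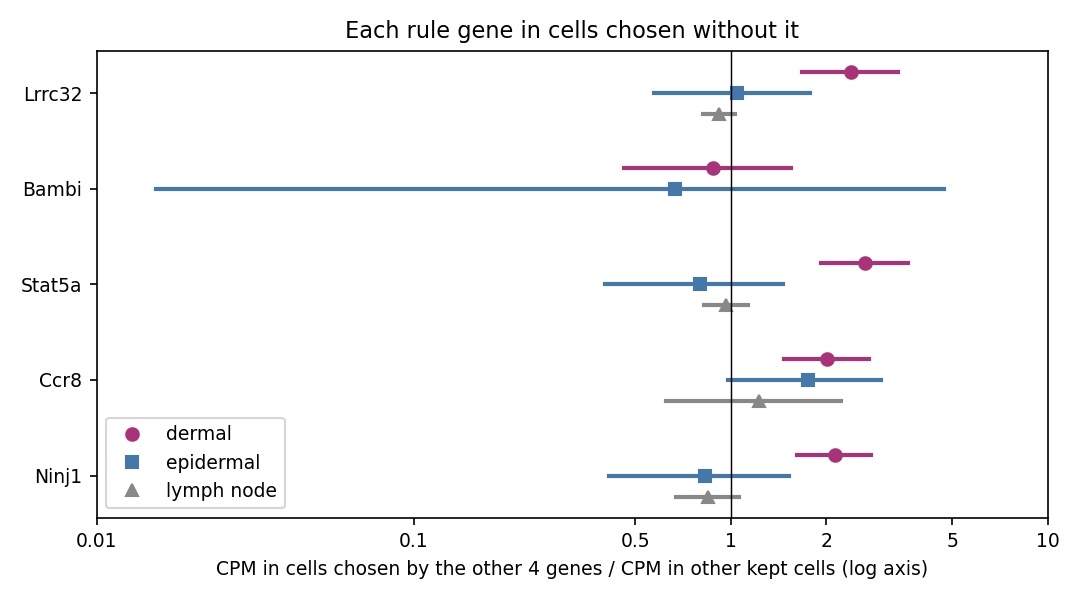
Ratio of the CPM of each rule gene in cells chosen by the other 4 genes to its CPM in the other kept cells (log axis), with 95% counting intervals, in dermis, epidermis and lymph node. In dermis 4 intervals lie above 1 and that of Bambi spans it, while in epidermis and lymph node every interval drawn spans 1; Bambi in lymph node, with 0 UMIs in the chosen cells, is not drawn.

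In pairs, the link was clearest for Lrrc32 with Ninj1. Lrrc32 stood at 63.0 CPM in the 190 cells with a Ninj1 UMI and 25.9 CPM in cells without, a ratio of 2.43 (1.77 to 3.33). Ccr8 stood at 79.0 CPM in the 132 cells with a Stat5a UMI and 41.6 CPM in cells without, a ratio of 1.90 (1.42 to 2.52). Bambi stood at 37.2 CPM in the 108 cells with a Lrrc32 UMI and 19.7 CPM in cells without, a ratio of 1.89 (1.20 to 2.91). The other way round, Lrrc32 had a ratio of 1.49 (0.886 to 2.39) beside Bambi and Stat5a 1.71 (1.08 to 2.59). Ccr8 in the 55 cells with a Bambi UMI stood at 52.8 CPM, against 49.3 CPM in cells without, a ratio of 1.07 (0.640 to 1.70). Cells with a UMI of a rule gene were deeper, with medians between 5605.5 and 6112.5 UMIs, against 4532.5 to 4748 UMIs in cells without.

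Outside the rule, genes of TNF receptors and NF-kB were higher in score-high cells, and the ratios farthest from 1 were those of the lower heat shock genes Hspa1b and Hspa1a. The rule of size asked for a ratio of 1.5-fold or more, with at least 50 CPM in the higher group and an interval that left out 1, and a gene that met it is called higher or lower. Of 3013 genes at 50 CPM, 202 were higher in score-high cells (6.7%) and 87 were lower (2.89%). The median log2 ratio of these genes was 0.04. Without the barcodes shared with epidermis, the counts were 222 higher and 90 lower, and 180 of the 202 and 68 of the 87 were among them. In cells thinned to 2000 UMIs, where 223 cells were chosen and 572 were not, 68 of the 202 and 19 of the 87 were called again. With cells chosen on one part of the UMIs and measured in the other, 96 of the 202 and 22 of the 87 were called again.

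TNF receptors of T cells, which signal through TRAF proteins to NF-kB, were the first of these. Tnfrsf9, which encodes 4-1BB, a receptor induced by activation (chr4:150914562-150946102), had 329 UMIs or 479 CPM in score-high cells and 610 UMIs or 159 CPM in the others. The ratio was 3.02 (2.63 to 3.46), and 21.6% of the UMIs in score-high cells came from 3 cells. Tnfrsf4, which encodes OX40, a costimulatory receptor, stood at 2508 CPM in score-high cells and 1290 CPM in the others, a ratio of 1.94 (1.84 to 2.05). Tnfrsf1b, which encodes TNFR2, a receptor of TNF on Tregs, stood at 427 CPM in score-high cells and 237 CPM in the others, a ratio of 1.80 (1.58 to 2.06). The death receptor Fas and the adaptor Traf3 were higher too, with ratios of 1.63 and 1.72. Tnfrsf18, which encodes GITR, had a ratio of 1.24 (1.14 to 1.35) and was not counted. Of 14 measured genes of the TNF receptor family, 5 were higher and 0 lower, all 14 ratios were above 1, and the median log2 ratio was 0.36 (0.07 to 0.91). Of all 7588 genes measured at 10 CPM, 2.66% were higher and 1.15% lower, with a median of 0.01. The range of the family's median lay above 0 under 18 of 27 other settings. Summed per cell, the family ran between 2824 and 9718 CPM (10th and 90th percentile) in score-high cells with a median of 5221, and between 1469 and 6508 in the other cells with a median of 3391, so the groups overlapped widely.

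NF-kB transcription factors are held in the cytoplasm by inhibitors that are themselves NF-kB targets. Rel, which encodes the subunit c-Rel that Tregs need to develop (chr11:23736847-23770970), stood at 440 CPM in score-high cells and 212 CPM in the others, a ratio of 2.07 (1.81 to 2.36). Nfkb1, which encodes the p105 precursor of p50, stood at 323 CPM in score-high cells and 192 CPM in the others, a ratio of 1.68. Among inhibitors and feedback genes, Nfkbie had a ratio of 1.87 (1.31 to 2.62), Bcl3 1.69, Nfkbib 1.68, Nfkbiz 1.58, Birc3 1.56 and Tnip1 1.54. Not all members took part. Rela stood at 46.6 CPM in score-high cells and 48.6 CPM in the others, and Nfkbia at 2572 and 2398 CPM. Of 18 measured genes of the NF-kB list, 8 were higher and 0 lower, against 2.66% and 1.15% of all measured genes. The median log2 ratio was 0.63 (0.15 to 0.93), the highest of the 19 lists. The list's median was 0.33 within clusters and 0.29 in thinned cells, where its range took in 0.

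**Figure D3:**
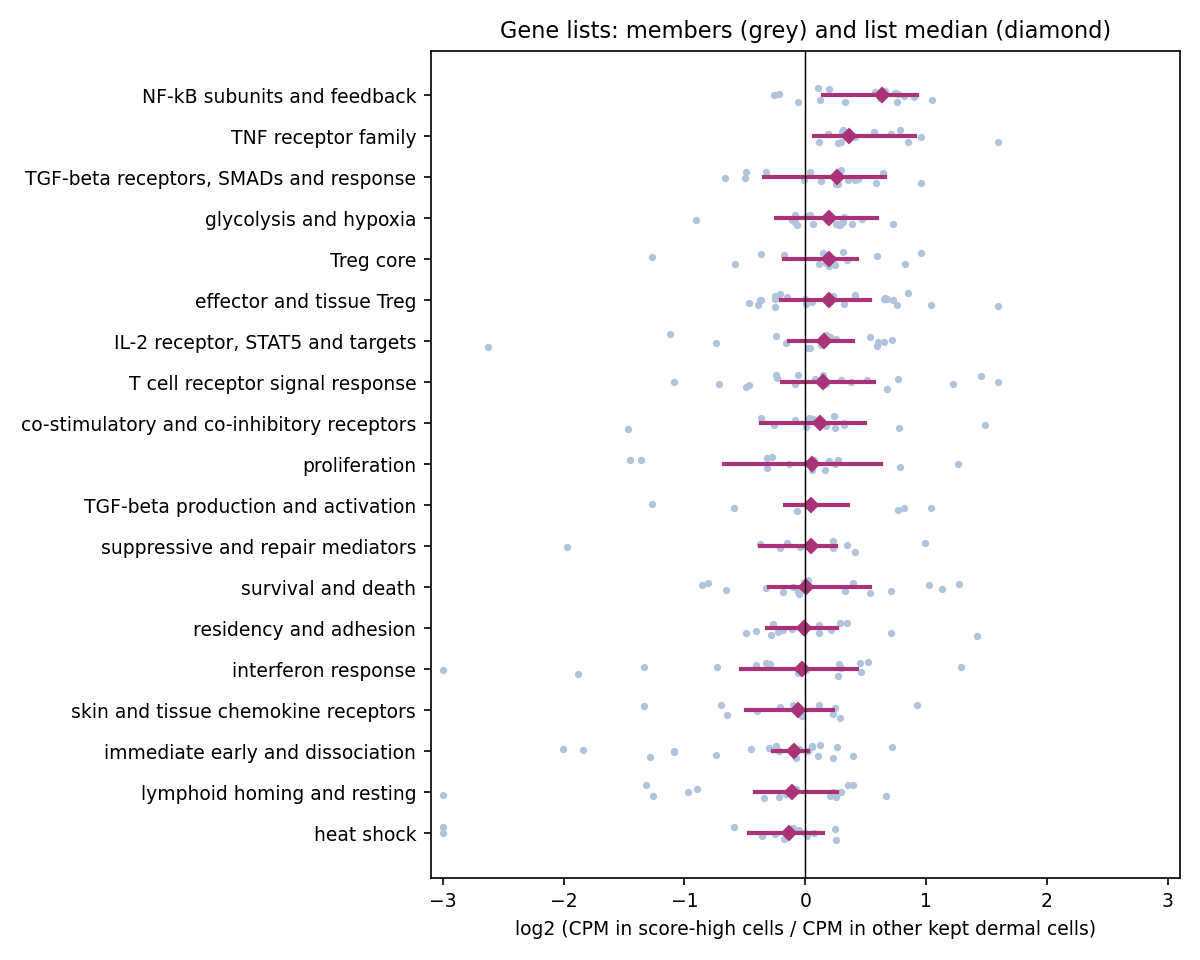
Log2 ratio of CPM in score-high cells over other kept dermal cells for the measured genes of the 19 lists (grey points, those beyond 3 in size drawn at 3) and the list median (diamond) with the medians of the lower and upper 95% bounds (line). The NF-kB and TNF receptor lists, at 0.63 and 0.36, are the lists whose line lies above 0.

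Upstream sequence is shown for Tnfrsf9 and Rel, the genes of these lists with the highest ratios, because both were higher together with NF-kB genes and each holds a match to the NF-kB consensus. The 250 bases before a RefSeq start site are given on GRCm38.p6, 5′ to 3′ in the direction of the gene, with the overlapping matches on both strands in capitals. The Tnfrsf9 sequence is chr4:150927749-150927998 on the plus strand, before the one of 2 start sites in the table that has a match. It lies inside the gene span given above (chr4:150914562-150946102), so it precedes an internal start site and not the outer end of the gene. The Rel sequence is chr11:23770970-23771219 on the minus strand.
Tnfrsf9: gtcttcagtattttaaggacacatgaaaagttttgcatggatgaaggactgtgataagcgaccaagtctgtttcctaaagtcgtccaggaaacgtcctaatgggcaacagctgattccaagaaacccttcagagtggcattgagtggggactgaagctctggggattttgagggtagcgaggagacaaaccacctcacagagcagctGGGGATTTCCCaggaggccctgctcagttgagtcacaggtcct
Rel: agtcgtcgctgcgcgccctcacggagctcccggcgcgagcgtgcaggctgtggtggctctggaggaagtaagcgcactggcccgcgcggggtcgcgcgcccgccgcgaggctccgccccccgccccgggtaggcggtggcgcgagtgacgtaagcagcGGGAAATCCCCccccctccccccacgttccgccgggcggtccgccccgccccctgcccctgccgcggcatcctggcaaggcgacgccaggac
The match begins 43 bases before the start site in Tnfrsf9 and 92 bases before it in Rel. Across the table, 1281 of 32851 such windows held a match (3.90%). By gene, a match was found for 18 of 160 genes that were higher in score-high cells and had a window (11.2%), 4 of 66 that were lower (6.06%) and 144 of 2341 genes at 50 CPM (6.15%). Of the 15 NF-kB list genes with a window, 8 held a match. A match describes these letters and says nothing of binding.

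Genes of survival and death moved both ways. Bcl2a1b, a BCL2-related survival gene and a known NF-kB target (chr9:89199209-89207827), stood at 479 CPM in score-high cells and 218 CPM in the others, a ratio of 2.19 (1.93 to 2.49). Its close copy Bcl2a1d stood at 51.0 CPM in score-high cells and 21.1 CPM in the others, and reads of the copies may not have been fully parted. Of the 35 Bcl2a1d UMIs in score-high cells, 45.7% came from 3 cells, and Bcl2a1d was counted under 14 of 25 other settings. Bcl2l11, which encodes the death-promoting BIM, was higher with a ratio of 2.03, while Bbc3, which encodes the death-promoting PUMA, stood at 55.3 CPM in score-high cells and 87.1 CPM in the others. Of 18 measured genes of this list, 4 were higher and 1 lower, against 2.66% and 1.15% of all measured genes, with a median log2 ratio of 0.01.

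Genes of TGF-beta release and response, the pathway of Lrrc32 and Bambi, included a few higher members. Itgav, a subunit of the integrin that frees TGF-beta, stood at 397 CPM in score-high cells and 226 CPM in the others, a ratio of 1.76 (1.53 to 2.02). Its partner Itgb8 stood at 119 CPM in score-high cells and 69.9 CPM in the others, a ratio of 1.71 (1.32 to 2.19). Tgfb1 itself stood at 313 CPM in score-high cells and 303 CPM in the others, a ratio of 1.03 (0.888 to 1.19). The TGF-beta targets Pmepa1 and Skil, both feedback genes, were higher, with 71.3 and 164 CPM in score-high cells, against 36.7 and 109 CPM in the others. Without the rule genes, 2 of 7 measured production genes and 2 of 16 measured receptor and response genes were higher and 0 lower, with median log2 ratios of 0.04 and 0.26, against 2.66% higher and 1.15% lower among all measured genes.

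Around Stat5a, the interleukin-2 receptor chain Il2ra stood at 441 CPM in score-high cells and 292 CPM in the others, a ratio of 1.51 (1.32 to 1.71). It was counted under 11 of 25 other settings. Stat5b, the close relative of Stat5a, had a ratio of 1.52 and the feedback inhibitor Socs3 1.65, with a log2 ratio that turned to -0.15 in thinned cells, while Ccnd3, a cyclin, stood at 83.0 CPM in score-high cells and 139 CPM in the others. The STAT5 targets Cish and Pim1 had ratios of 1.15 and 1.20 and were not counted. Of 18 measured genes of the interleukin-2 list, 3 were higher and 1 lower, against 2.66% and 1.15% of all measured genes. The median log2 ratio was 0.15.

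Among chemokine receptors other than Ccr8, several were lower in score-high cells. Ccr4, a skin-homing receptor, stood at 24.7 CPM in score-high cells and 62.4 CPM in the others, 2.52-fold lower. Ccr10, which binds a keratinocyte chemokine, stood at 163 CPM in score-high cells and 256 CPM in the others, and Ccr3 at 46.6 and 75.4 CPM. Ccr2 and Ccr6 had ratios of 0.983 and 1.08. Of 12 measured genes, 3 were lower (Ccr4, Ccr10 and Ccr3), against 1.15% of all measured genes, and the median log2 ratio was -0.06.

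Most core and effector genes of Tregs stayed within 1.5-fold. Ctla4, an inhibitory receptor, stood at 2613 CPM in score-high cells and 2199 CPM in the others, a ratio of 1.19 (1.13 to 1.25). Icos had a ratio of 1.25, Gata3 of 1.04, Klrg1 of 1.01 and the integrin Itgae of 0.992. Ikzf4, which encodes the Foxp3 partner Eos, was higher with a ratio of 1.77 (1.28 to 2.41). Il1rl1, which encodes the interleukin-33 receptor ST2, stood at 204 CPM in score-high cells and 130 CPM in the others, a ratio of 1.57 (1.29 to 1.89). The transcription factors Batf, Nfil3 and Id2 had ratios of 1.60, 1.69 and 1.66, and the decoy receptor Il1r2 of 1.58. Areg, a repair factor, stood at 965 CPM in score-high cells and 725 CPM in the others, a ratio of 1.33 (1.22 to 1.45). Il10 stood at 99.0 CPM in score-high cells, with 52.9% of its UMIs in 3 cells, and 110 CPM in the others. Of the measured genes, 3 of 15 Treg core genes and 7 of 25 effector and tissue Treg genes were higher and 0 lower, with median log2 ratios of 0.20 and 0.19. Both shares were above the 2.66% higher among all measured genes, of which 1.15% were lower. The lists shared genes, so their counts are not separate. Tnfrsf4 was in the Treg core and TNF receptor lists, and Tnfrsf9 in the effector, TNF receptor and T cell receptor signal lists. Summed per cell, the effector list had a median of 17018 CPM in score-high cells and 18640 CPM in the others. For the Treg core list the medians were 9836 and 7806 CPM.

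The lower genes were led by heat shock and immediate early transcripts, which cells make quickly on stress or stimulation and which are known to appear during tissue digestion. Hspa1b stood at 5.82 CPM in score-high cells and 231 CPM in the others, and Hspa1a at 4.37 and 157 CPM. They are near-identical copies whose reads may not have been parted, with 4 and 3 UMIs in score-high cells. In the other cells, 32.0% of the Hspa1b and 36.4% of the Hspa1a UMIs came from 3 cells. Fos, a subunit of AP-1 (chr12:85473890-85477273), stood at 821 CPM in score-high cells and 2006 CPM in the others, 2.44-fold lower. Its partner Jun stood at 45.1 CPM in score-high cells and 162 CPM in the others, 3.59-fold lower. Atf3 and Zfp36 had ratios of 0.472 and 0.598, and Dnajb1 of 0.663. Of 22 measured immediate early genes, 1 was higher and 4 lower, with a median log2 ratio of -0.10. Of 14 heat shock genes, 0 were higher and 3 lower, with a median of -0.14. Among all measured genes, 2.66% were higher and 1.15% lower.

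Across the score, several of these genes formed a series. They were picked for their difference between score-high and other cells, so the last step of each series restates that difference. Tnfrsf9 stood at 119 CPM in cells with a score of 0, 199 CPM in cells with a score below the threshold and 479 CPM in score-high cells. Tnfrsf4 stood at 1094, 1491 and 2508 CPM, and Rel at 167, 259 and 440 CPM. Fos ran the other way, at 2547, 1453 and 821 CPM, while Jun stood at 138, 186 and 45.1 CPM. The 439 cells with a score of 0 had a median of 4180 UMIs and the 281 cells below the threshold 5600 UMIs, so depth differed along the series. Between score-high and other cells, the comparison within UMI quartiles counted 200 genes higher and 92 lower, 188 of the 202 and 81 of the 87 among them, while thinned cells gave 153 and 85, with the lower overlap given above.

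**Figure D4:**
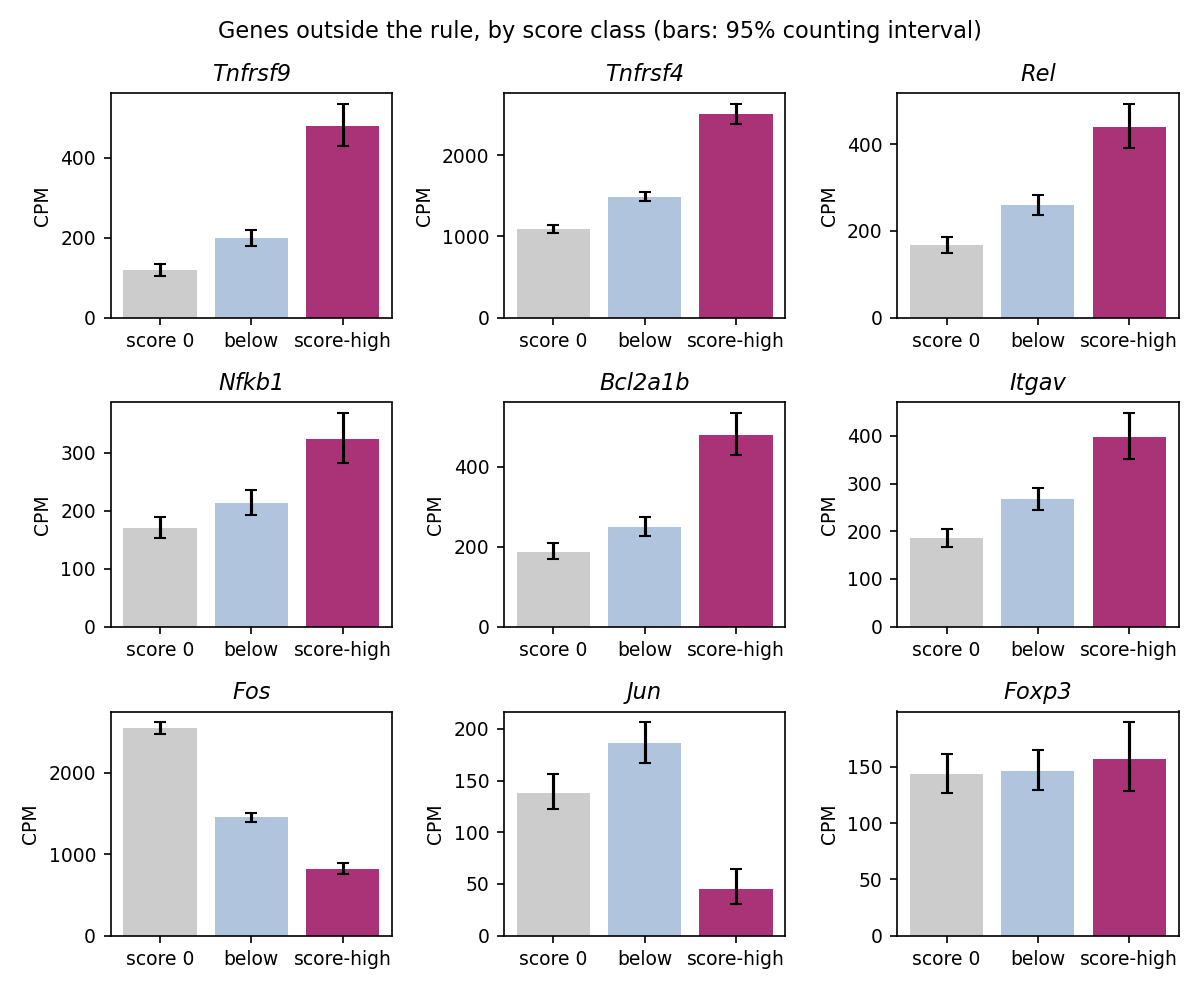
CPM of 9 genes outside the rule in dermal cells with a score of 0, a score above 0 and below the threshold, and a high score, with exact 95% counting intervals. Tnfrsf9, Tnfrsf4, Rel, Nfkb1, Bcl2a1b and Itgav are highest in score-high cells, Fos and Jun lowest, and Foxp3 is level at 144, 147 and 157 CPM.

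The rule genes differed in what came with them. Tnfrsf9 was 2.52-fold higher in the 144 cells with a Ccr8 UMI than in cells without (2.20 to 2.87). For Ninj1 the ratio was 2.15, for Lrrc32 2.14, for Stat5a 1.95 and for Bambi 1.43. Bcl2a1b was highest beside Ccr8 and Bambi, with ratios of 1.97 and 1.91. Il2ra had a ratio of 1.40 (1.24 to 1.57) beside Stat5a and 0.966 (0.840 to 1.11) beside Lrrc32. Fos was lower beside each of the 5 genes, with ratios between 0.381 and 0.593. Jun had a ratio of 0.449 (0.347 to 0.573) beside Ccr8 but 1.53 (1.28 to 1.81) beside Stat5a, so its lower level did not come with every rule gene.

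Other genes named by size had fewer molecules or rested on few cells. Rgs16, a regulator of G protein signals, had a ratio of 2.51, Mmd 2.54, Rnf157 2.52, Alkbh6 2.50, Gramd3 2.43 and the lactate transporter Slc16a3 2.35, with between 37 and 82 UMIs each in score-high cells. Plk4, a centriole kinase, had the highest ratio, 3.20, but 72.7% of its UMIs in score-high cells came from 3 cells, and its direction turned under 5 settings. For the chemokine Ccl5, with a ratio of 2.43, 77.5% came from 3 cells, and for Tff1, with a ratio of 1.99, 61.2% did. Among the 10 lowest were also Gcc2, Mrpl30, Eif1b, Dbp, a clock gene, and Axin2, a Wnt target, each between 2.24-fold and 2.55-fold lower, with 17 to 20 UMIs in score-high cells.

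In the remaining lists few genes were counted, beside 2.66% higher and 1.15% lower among all measured genes. Nr4a3, an early gene of T cell receptor signals, had a ratio of 1.70 (1.40 to 2.05), and 3 of 20 genes of that list were higher and 1 lower. Crem was the higher one of 15 residency genes, Tff1 of 11 suppressive and repair genes and H2afz of 15 proliferation genes, with ratios of 1.64, 1.99 and 1.72 and 0 lower in each list. Egln3 was higher and Slc2a3 lower among 19 glycolysis and hypoxia genes. No gene was counted among 14 costimulatory and inhibitory receptors, 17 lymphoid homing genes, Ccr7 with a ratio of 0.927 (0.665 to 1.27) among them, and 16 interferon genes. The median log2 ratios were 0.15 for T cell receptor signals, -0.01 for residency, 0.04 for repair, 0.06 for proliferation, 0.20 for glycolysis, 0.12 for costimulation, -0.11 for homing and -0.03 for interferon.

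By genes outside the rule, the score-high cells lay partly together. Of the 15 nearest neighbours of a score-high cell, 25.9% were score-high on average, against 11.2% for the other kept cells and 14.1% of all kept cells. Of 10 clusters made without the 5 genes, cluster 1 held 42.4% of score-high cells and 13.5% of the others. In it 50 of 147 cells were score-high, 34.0% (exact 95% interval 26.4% to 42.3%). Cluster 2 held 1 score-high cell among 127 and cluster 4, with Fos and Hspa1a among its leading genes, 3 among 99. Heat shock genes were also among the leading genes of cluster 7 (Hspa1a) and cluster 8 (Hspa1b and Dnajb1). There 16 of 73 cells (21.9%) and 8 of 41 cells (19.5%) were score-high, so clusters led by heat shock genes did not all hold few score-high cells. Median depth was 5612 UMIs in cluster 1, against 3732 in cluster 2 and 3763 in cluster 4.

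**Figure D5:**
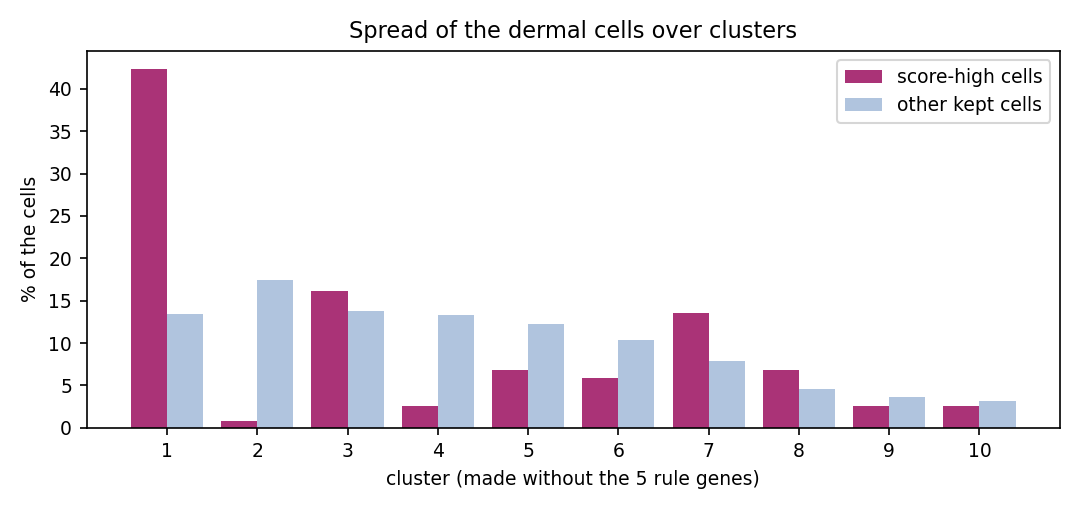
Share of the 118 score-high cells and of the 720 other kept dermal cells in each of 10 clusters made from variable genes without the 5 rule genes. Cluster 1 holds 42.4% of score-high cells and 13.5% of the others, and clusters 2 and 4 hold few score-high cells.

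Part of the difference between the groups went with the clusters. With other cells weighted to the clusters of the score-high cells, a comparison chosen after seeing the data, 90 genes were higher and 75 lower, and 79 of the 202 and 52 of the 87 were among them. Since the clusters were made from these genes, this comparison takes out some of the difference by its making. Within clusters Tnfrsf9 kept a ratio of 2.45, Bcl2a1b 1.84, Rel 1.56, Itgb8 1.51, Fos 0.624 and Jun 0.362. Tnfrsf4, with 1.49, Tnfrsf1b, with 1.40, Il2ra, with 1.34, Itgav, with 1.30, and Il1rl1, with 1.16, were then no longer counted. Of the 202 higher genes, all 202 still had a ratio above 1 within clusters, and of the 87 lower genes 85 had a ratio below 1. These genes were picked by their ratios in the same score-high cells, whose values the weighting left unchanged. The kept directions are therefore no separate support.

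Markers of other cell types were low in both groups. The summed list of dendritic and Langerhans cells stood at 603 CPM in score-high cells and 494 CPM in the others, a ratio of 1.22 (1.09 to 1.36). Cd74, which activated T cells also express, stood at 437 and 351 CPM. In score-high cells H2-Aa, H2-Ab1, H2-Eb1, Epcam and Xcr1 made up the rest, with Cd207, Flt3, Itgax and Cd209a at 0. The innate lymphoid list stood at 2268 CPM in score-high cells and 1831 CPM in the others, led by Rora at 910 and 686 CPM, a gene that skin Tregs share. Keratinocyte markers stood at 99.0 and 98.3 CPM, mostly Sfn at 87.3 and 83.2 CPM, with Krt5 and Krt14 at 0 in score-high cells. Macrophage markers stood at 0 CPM in score-high cells and 5.46 CPM in the others, and the other 9 lists were at 61.1 CPM or less in score-high cells. In no cell did these lists, the lymphoid ones left out, together exceed 0.458% of UMIs. The part of the higher Cd74 and Rora levels in the results was not tested.

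The same rule was then applied in epidermis and lymph node, which had no part in the choice. Over all kept cells, Bambi stood at 22.9 CPM in dermis, 5.03 CPM in epidermis and 0.857 CPM in lymph node. Ccr8 stood at 49.6 CPM in dermis, 38.8 CPM in epidermis and 2.66 CPM in lymph node, and Ninj1 at 62.7, 44.3 and 24.8 CPM. Lrrc32 was in the opposite order, at 36.8 CPM in dermis, 51.6 CPM in epidermis and 86.6 CPM in lymph node, while Stat5a stood at 42.6, 50.7 and 42.7 CPM. The lymph node library was made with another version of the kit (v2 in place of v3), so its levels also differ in chemistry. With 1 gene left out, no rule gene had an interval above 1 in epidermis or lymph node. In epidermis Ccr8 came nearest, at 61.7 CPM in the chosen cells and 35.3 CPM in the rest, a ratio of 1.75 (0.978 to 2.98), and in lymph node Lrrc32 stood at 80.5 and 87.5 CPM. That the dermal ratios differed from those of the other libraries was not tested.

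In epidermis the rule chose 38 of 271 cells, 5 of them with a shared barcode. Of 3239 genes at 50 CPM, 289 were higher in the chosen cells (8.92%) and 181 lower (5.59%). Of the 202 genes higher in dermis, 130 reached 50 CPM in epidermis, and 106 of these had a ratio above 1 (81.5%), against 54.6% of all genes at 50 CPM. Their median log2 ratio was 0.47, against 0.04 for all. Higher in both were 46 genes, which made 22.8% of the dermal and 15.9% of the epidermal list. Without shared barcodes, 96 of 120 had a ratio above 1, the median was 0.49 and 39 were higher in both. Of the 87 genes lower in dermis, 73 reached 50 CPM in epidermis, and 10 were lower there too. A ratio below 1 was found for 51 of the 73, against 1472 of all 3239 genes.

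Some TNF receptor and NF-kB genes were among those higher in both skin layers. Tnfrsf9 stood at 556 CPM in chosen epidermal cells and 201 CPM in the rest, a ratio of 2.76 (2.29 to 3.33). Tnfrsf4 had a ratio of 1.89 (1.74 to 2.06) in epidermis, Rel 2.32 (1.76 to 3.03), Itgav 2.76 (2.11 to 3.58) and Pmepa1 2.29 (1.79 to 2.91). Others higher in dermis were not counted in epidermis, such as Tnfrsf1b with a ratio of 1.17 (0.909 to 1.49), Bcl3 with 0.831 and Birc3 with 1.27, and Tnip1 was lower there. Without shared barcodes the ratios were 2.65 for Tnfrsf9, 1.75 for Tnfrsf4, 2.18 for Rel, 2.84 for Itgav and 1.85 for Pmepa1. The NF-kB list had a median log2 ratio of 0.42 in epidermis, with 6 of 17 genes higher and 1 lower, against 3.50% and 2.19% of all genes measured. Its range took in 0, and the median was 0.27 without shared barcodes. Fos and Jun ran the other way than in dermis. Fos stood at 673 CPM in chosen epidermal cells and 504 CPM in the rest, a ratio of 1.33 (1.14 to 1.56), and Jun had a ratio of 1.45 (1.11 to 1.86). Hspa1b had 0 UMIs in chosen epidermal cells and 41 in the rest, and Hspa1a 1 and 30 UMIs. This is the dermal direction, though the Hspa1a interval took in 1. The heat shock list as a whole did not follow, with 3 of 14 genes higher, 0 lower and a median log2 ratio of -0.01. Without shared barcodes 2 of 13 were higher and 0 lower, with a median of 0.19. Areg, level to within 1.5-fold in dermis, stood at 1312 CPM in chosen epidermal cells and 405 CPM in the rest, a ratio of 3.24 (2.86 to 3.67). The TGF-beta production list had a median of 0.70 in epidermis and 0.23 without shared barcodes, and the proliferation list -2.89 over 21 genes and 0.28 over 12. Leaving out these barcodes also changed the choice, to 33 of 236 cells, and the proliferation genes measured. The cause of the shifts was not tested.

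In lymph node the rule chose 1303 of 9305 cells, and few genes met the rule of size. Of 2458 genes at 50 CPM, 8 were higher (0.325%) and 5 lower (0.203%). Of the 202 genes higher in dermis, 60 reached 50 CPM there, and 49 of these had a ratio above 1 (81.7%), against 55.5% of all genes. Their median log2 ratio was 0.13, against 0.01 for all. Of the 87 genes lower in dermis, 53 reached 50 CPM, 27 of them had a ratio below 1 and 26 above, and 0 were lower. Rel, at 68.1 CPM in chosen cells and 44.0 CPM in the rest, was the 1 gene higher in both. Tnfrsf9 stood at 192 CPM in chosen lymph node cells and 144 CPM in the rest. All 17 measured NF-kB genes had ratios above 1, against 3903 of all 6905 measured genes, with a median log2 ratio of 0.19. The range of that median (-0.06 to 0.39) took in 0, and 1 gene was higher and 0 lower, against 0.116% and 0.0724% of all measured genes. Lists called higher there were interleukin-2 (median 0.21), Treg core (0.20) and TGF-beta production (0.19). Chemokine receptors (-0.31) and proliferation (-0.46) were called lower, and the TNF receptor list (0.10) was not called.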

How the data were processed

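Deposited values were counts, that is, UMI counts per gene and barcode with no normalization, made with Cell Ranger on mm10 per the submitters' processing notes (4.0.0 for both skin matrices per the file headers; the sources used here do not name the release for lymph node). The dermal matrix held 1077 barcodes already called as cells; 202 were removed by the mitochondrial limit and 37 by the T cell limit. Reads were not analysed here.

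The cells and the 19 functional and 13 other-type lists were chosen with earlier results of these data known; 9 list genes were not in the table of 27998 genes. UMIs were summed over cells and scaled to CPM. Ratios had Clopper-Pearson intervals of the split of UMIs, which cover counting error only; a list range is the median of its genes' bounds, over genes at 10 CPM, and a list was called when it left out 0. Named genes were the 5 rule genes, 16 fixed genes, the 10 highest and 10 lowest ratios and up to 2 per list, none of them ribosomal, mitochondrial, predicted, keratin, haemoglobin, sex-linked, an immune receptor segment or a marker of another cell type; further list genes counted as higher or lower, and some others given for contrast, were named after their values were seen; 1 named gene is not reported here. Leiden clusters (resolution 1) came from 15 neighbours over 20 principal components of 1500 variable genes. Doublets, marked by Scrublet in 12 cells (1.43%), 2 of them score-high, were left in. Alternatives were other cell filters, percentiles, scores, depths, scalings and size rules; leaving out barcodes shared between skin libraries or the 3 deepest score-high cells, and weighting by cluster, were added after seeing the data. Upstream sequences were from RefSeq. The calculation was tested on simulated data. TMM factors came from edgeR 4.0.16 in R 4.3.3, and all else from Python 3.11.15 (scanpy 1.11.5, leidenalg 0.10.2, scipy 1.17.1, pandas 2.3.3, numpy 2.4.6, matplotlib 3.10.9).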

Additional observations from a re-analysis of the deposited data

Results flagged for a closer look

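The same rule gave opposite directions in the skin layers for 4 genes, counted as higher in score-high dermal cells and lower in the chosen epidermal cells. The difference between the layers was not tested, and 1 library was made per layer. Rb1cc1, an autophagy gene, had a log2 ratio of 0.61 in dermis and -0.86 in epidermis. For Cenpa, a centromere histone, the log2 ratios were 0.94 in dermis and -0.92 in epidermis. Utrn had log2 ratios of 0.60 in dermis and -1.001 in epidermis. Tnip1, an inhibitor of NF-kB signals, had 0.62 in dermis and -1.16 in epidermis. The epidermal values rest on 17 UMIs of Rb1cc1, 15 of Cenpa, 12 of Utrn and 11 of Tnip1 in the chosen cells. Without the shared barcodes the epidermal log2 ratios were -0.69 for Rb1cc1, -0.60 for Cenpa, -0.81 for Utrn and -1.31 for Tnip1, and of these only the interval of Tnip1 (ratio 0.403, 0.181 to 0.789) left out 1.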

How the results depend on the processing

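Under 28 other settings the count of higher genes ran between 25 and 337 and that of lower genes between 17 and 214, and in none was a gene called in the opposite direction. With 2-fold in place of 1.5-fold, 25 genes were higher and 17 lower, with at least 20 CPM 337 and 214, and with at least 100 CPM 84 and 20, since fewer or more genes could pass. At the 80th percentile 45 genes were lower, with totals that left out mitochondrial and ribosomal protein genes 138 were lower, and within clusters 90 were higher, a share of higher genes among calls of 54.5%, against 69.9% in the main comparison. That share was 62.2% with TMM scaling. Of the list medians, only that of TGF-beta production moved by more than its range, to 0.47 with cells chosen on one part of the UMIs and measured in the other, and to 0.41 both at 50 CPM and with no minimum. The NF-kB list was called higher under 24 of 27 settings and the TNF receptor list under 18 of 27. In cells thinned to 2000 UMIs the log2 ratio of the rule gene left out was 0.56 for Stat5a, 0.66 for Ninj1 and -0.25 for Ccr8. Of 41 named genes counted, 38 kept their direction in all 25 settings, which all reuse the dermal cells in which these genes were counted. Plk4 turned to -0.31 at 5% mitochondrial UMIs, -0.34 in cells with a Foxp3 UMI, -0.097 at the 90th percentile, -0.54 without Stat5a in the score and -0.098 with split UMIs. Tff1 turned to -0.039 in cells with a Foxp3 UMI and -0.54 with split UMIs, and Socs3 to -0.15 in thinned cells; the cause was not tested. No paired analysis was possible because each tissue has 1 library and all values come from no test. Genes under 50 CPM in both groups were not counted, and ratios whose counting interval takes in 1 could not be told from 1 at this depth.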
